A study of Mus musculus with 12 samples.

Results

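The genes described are those of the MHC class II antigen presentation module: the chain genes H2-Aa, H2-Ab1 and H2-Eb1, the invariant chain gene Cd74, the peptide-exchange genes H2-DMa and H2-DMb1, and the regulator gene Ciita. They were chosen by name, 7 of the 55573 genes in the count table, and all 7 were found. They were proposed with their levels in these 12 libraries already known, so the levels, fold changes and adjusted p-values below describe these libraries and are not independent evidence. Only 4 of the 7 (Cd74, H2-Ab1, H2-DMa and H2-DMb1) passed edgeR's filter on low counts and entered the model across 16761 genes. H2-Aa, H2-Eb1 and Ciita did not pass and are given by their counts.

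RNA was sequenced from astrocyte-enriched cultures of forebrains of newborn C57BL6/J mice, in 4 groups of 3 libraries. Each culture carried a lentivirus for 5 days, either the control vector pCIG3 (pCMV-IRES-GFP), in which a CMV promoter and not an astrocyte promoter is named, or pCIG3-ACREB. ACREB is a dominant-negative inhibitor of CREB, the transcription factor that acts downstream of cAMP. Cultures of both viruses were bathed for 30 min in PBS or in VIP (vasoactive intestinal peptide, 0.5 µM) and left to recover for 90 min, so the groups are control virus with PBS, control virus with VIP, ACREB with PBS and ACREB with VIP. All groups share the mouse strain, a lentiviral transduction and the shaking step that detaches other glia. Libraries are numbered 1 to 3 within a group, and nothing in the labels says that the numbers stand for separate cultures or mice. A p-value here therefore speaks only to the variation among libraries within groups, pooled over all 12 libraries, and that variation may be technical. Same-numbered libraries deviated together, which the main fit does not use.

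MHC class II molecules are pairs of an alpha and a beta chain that present peptides from endosomes to CD4+ T cells. The invariant chain, encoded by Cd74, fills the peptide groove of new pairs and guides them to endosomes, and H2-DM then exchanges the remnant of the invariant chain for peptide. CIITA, a co-activator induced by interferon-gamma, switches the genes on by docking onto RFX, CREB and NF-Y proteins bound to the X and Y boxes of their promoters. In the brain, microglia and macrophages at the borders are the main cells known to carry class II, and astrocytes in culture can acquire it after interferon-gamma.

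Because ACREB blocks CREB, and the X2 element of class II promoters resembles a cAMP response element (CRE), the promoter letters are shown first. RefSeq windows (GRCm38.p6) were matched for 4 of the 7 genes, H2-Aa, H2-Eb1, H2-DMa and H2-DMb1. They were searched in the 250 bases before the start, on both strands, for the full CRE TGACGTCA, the half-site TGACG, a core of the X1 element AACNGATG and the inverted CCAAT box ATTGG of the Y element. The full CRE contains the half-site on each strand, and the remaining motifs do not overlap in the stretches shown. In the 3 stretches below, written 5′ to 3′ on the strand of the gene, capitals mark these motifs. The first is chr17:34287824-34287933 on the minus strand and the second is chr17:34305757-34305866 on the plus strand, and both end at the base before the start. The third is a 30-base part of the H2-DMb1 window, chr17:34153094-34153123 on the plus strand, 97 to 68 bases before the RefSeq start and inside the transcript that GENCODE begins at 34153072.
H2-Aa: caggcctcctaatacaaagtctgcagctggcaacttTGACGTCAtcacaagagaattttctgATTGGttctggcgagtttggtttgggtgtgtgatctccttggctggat
H2-Eb1: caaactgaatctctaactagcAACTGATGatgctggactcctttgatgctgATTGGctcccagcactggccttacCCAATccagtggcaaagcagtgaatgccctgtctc
H2-DMb1: ctagtAACTGATGatgctaggctgattcac

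The H2-Aa window held the full CRE from 74 to 67 bases before the start and an inverted CCAAT box from 48 to 44 bases before it. The H2-Eb1 and H2-DMb1 windows held the X1 core, 89 to 82 and 92 to 85 bases before the start, each followed by an inverted CCAAT box (59 to 55 and 61 to 57 bases before it), and neither held TGACG. Of the 2 windows of H2-DMa, one held none of these motifs and the other held ATTGG. Among 32851 promoter windows of the same length, 1.55% held the full CRE, 17.8% the half-site, 1.98% the X1 core and 33.8% the inverted CCAAT box. The full CRE and the inverted CCAAT box occurred together in 0.527% of windows, and the X1 core with the inverted CCAAT box in 0.688%. These matches describe letters only, and no binding was measured.

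Total counts were 16571398 to 20529238 per library. The cultures had the astrocyte markers of their label: all 10 astrocyte markers passed the filter, with summed levels of 5482 to 6626 CPM (counts scaled by library size, with sizes adjusted by edgeR's TMM). Of 19 microglia and macrophage markers 18 also passed the filter, with Cd163 (5 counts in all) below it, and their sum ran from 1801 to 4754 CPM. Of 5 T cell markers, Cd3d, Cd3e, Cd3g and Cd8a had 0 counts and Cd4 had 7 over the 12 libraries, and B cell markers summed to at most 0.67 CPM. Of 8 dendritic cell markers, Zbtb46 (mean 9.14 CPM), Batf3 (2.37 CPM) and Itgax (1.13 CPM) passed the filter, and Flt3, Xcr1, Clec9a, Cd209a and Ccr7 had 1 to 7 counts each over the 12 libraries. GC content and gene length accounted for 55.6% of the variance of the departure of control PBS library 2 from the mean library, for 30.4% in ACREB PBS library 2 and for 29.0% or less elsewhere.

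Cd74 was higher in the ACREB libraries than in the control libraries, by a ratio of means of 3.6 with PBS and 4.14 with VIP. The gene (ENSMUSG00000024610, chromosome 18, 60803848 to 60812652, GRCm38) stood at 2.75, 5.69 and 5.78 CPM in libraries 1 to 3 with control virus and PBS, and at 3.33, 2.80 and 4.70 CPM after VIP. With ACREB it measured 12.3, 24.3 and 14.6 CPM after PBS and 12.5, 18.7 and 13.6 CPM after VIP. Every ACREB library lay above every control library, and the library numbered 2 was the highest in both ACREB groups. In ACREB PBS library 2, the highest of all, GC content and length accounted for 30.4% of the departure over genes, as given above. That share belongs to the library as a whole and not to Cd74. Without that library the log2 fold change of Cd74 with PBS was 1.50 (adjusted p = 0.479 in edgeR). That fit had no replicate block. With all libraries kept, the replicate block alone gave a Cd74 log2 fold change with PBS of 1.85 (adjusted p = 0.019 in edgeR). GC and length offsets plus the replicate block gave 1.93 (adjusted p = 0.0015 in edgeR). Of the 16761 genes tested, 0.811% were likewise higher in all 6 ACREB libraries than in all 6 control libraries. The counts behind these levels were 53 to 109 per control library and 223 to 402 per ACREB library.

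**Figure D1:**
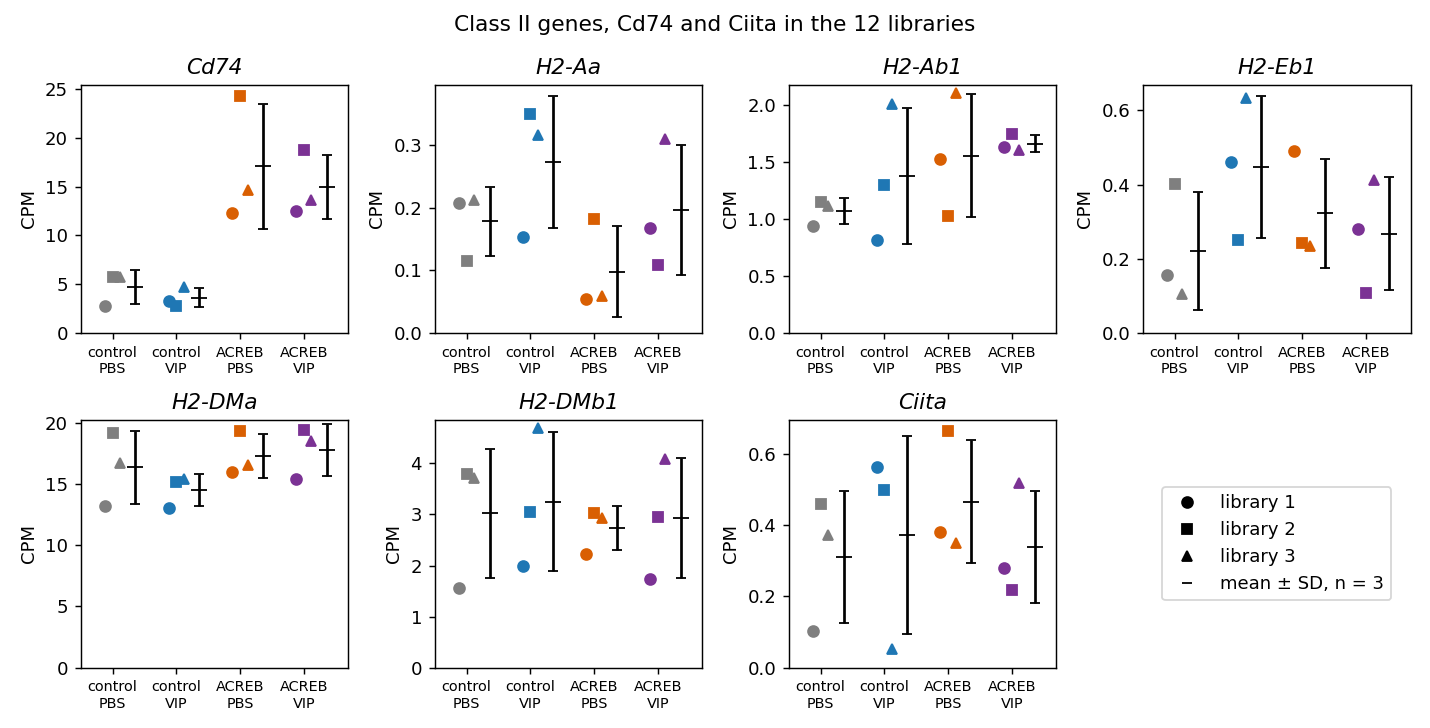
Level of each gene in the 12 libraries, in CPM on TMM-adjusted library sizes, by virus and treatment; symbols mark the library number, and dashes with bars show the mean ± SD of 3 libraries. Only Cd74 separates the ACREB libraries (12.3 CPM and above) from the control libraries (5.78 CPM and below), and H2-Aa, H2-Eb1 and Ciita reach at most 0.350, 0.634 and 0.665 CPM.

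With PBS, mean Cd74 was 17.1 ± 6.38 CPM (SD, n = 3) with ACREB and 4.74 ± 1.72 CPM with control virus. The log2 fold change was 1.85 (SE 0.33). It missed the threshold of 0.05 in the quasi-likelihood test of edgeR after adjustment over all genes by Benjamini-Hochberg (adjusted p = 0.130). With the replicate number as a block, since same-numbered libraries deviated together, it passed in edgeR's test (log2 1.85, SE 0.25, adjusted p = 0.019), as it did with DESeq2 (adjusted p = 5.76e-05). Cd74 ranked 15th of the genes tested by p, and its groups did not overlap, as for 4.34% of genes in that direction. The test called 0.0358% of all genes in this comparison, and 0.221% with the block.

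With VIP, mean Cd74 was 14.9 ± 3.30 CPM with ACREB and 3.61 ± 0.981 CPM with control virus. The log2 fold change of 2.05 (SE 0.34) again missed the threshold of the edgeR test (adjusted p = 0.070), and passed with the block (2.03, SE 0.26, adjusted p = 0.015) and with DESeq2 (adjusted p = 2.78e-06). The test called 0.0537% of all genes here and 0.364% with the block, and 6.97% of genes were higher without overlap. The 2 comparisons of the viruses use different libraries, while each shares its libraries with a comparison of VIP against PBS.

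The difference between the viruses was present within each number. In same-numbered libraries, log2(CPM + 0.5) of Cd74 with ACREB exceeded that with control virus by 1.97, 2.00 and 1.27 after PBS and by 1.77, 2.54 and 1.44 after VIP. All 6 differences were positive, as any pairing must give when every ACREB library lies above every control library, so their sign adds no support. H2-Ab1 gave differences of 0.50, -0.11 and 0.69 after PBS and 0.69, 0.32 and -0.25 after VIP, which do not share a sign.

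**Figure D2:**
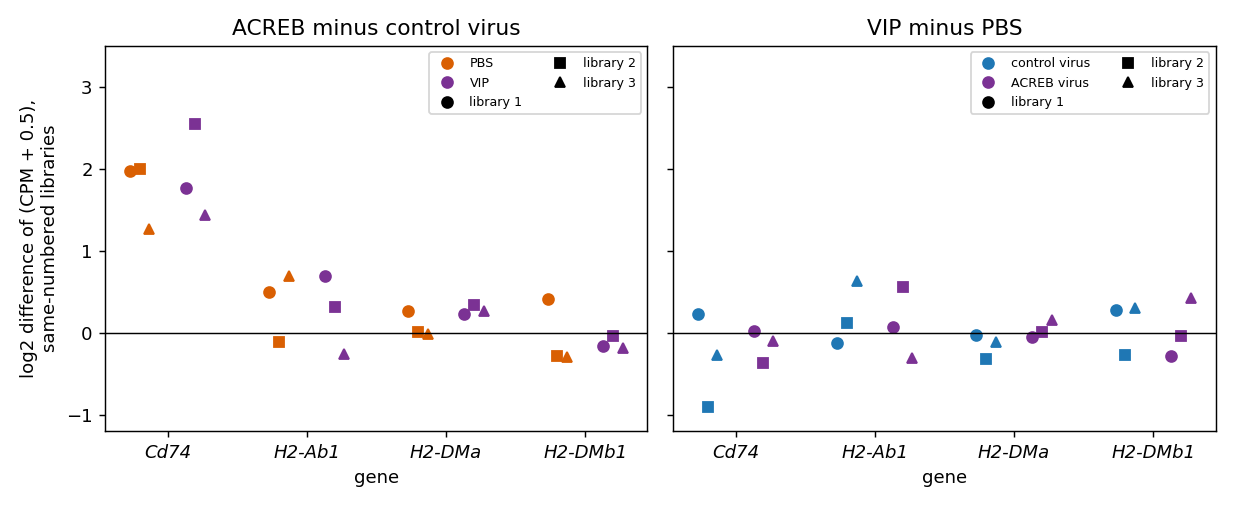
Difference of log2(CPM + 0.5) between same-numbered libraries for the 4 genes that passed the filter, as ACREB minus control virus on the left and VIP minus PBS on the right; each symbol is 1 pair. The 6 Cd74 pairs on the left lie between 1.27 and 2.54, and the pairs of the other genes lie between -0.30 and 0.69.

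For Cd74, the VIP and PBS libraries overlapped in both viruses. Its log2 fold change with VIP was -0.39 (SE 0.34) with control virus and -0.19 (SE 0.31) with ACREB, and edgeR called neither (adjusted p = 0.782 and 1.00). The same-numbered differences were 0.23, -0.91 and -0.27 with control virus and 0.03, -0.37 and -0.10 with ACREB. The difference between the VIP responses of the viruses (ACREB less control, the interaction) was 0.20 (SE 0.46, adjusted p = 1.00 in the same edgeR test). A p that misses the threshold does not show that the responses are alike.

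The alpha and beta chain genes had few counts in every group, and H2-Ab1, the chain gene that passed the filter, was called in no comparison. H2-Ab1 (ENSMUSG00000073421, chromosome 17, 34257689 to 34269419) encodes the beta chain of I-A, the class II molecule that C57BL/6 mice make. It had 18, 20 and 21 counts in the control PBS libraries, 16, 26 and 38 with control virus and VIP, 28, 17 and 36 with ACREB and PBS, and 29, 32 and 31 with ACREB and VIP. Group means were 1.07 ± 0.115, 1.37 ± 0.597, 1.55 ± 0.540 and 1.66 ± 0.0755 CPM (SD, n = 3) in that order, and the ACREB and control libraries overlapped in both treatments. Between the viruses, log2 fold changes of 0.54 (SE 0.35) after PBS and 0.27 (SE 0.34) after VIP did not pass in edgeR (adjusted p = 0.956 and 1.00).

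H2-Aa (ENSMUSG00000036594, chromosome 17, 34282744 to 34287823), the partner alpha chain whose promoter carries the full CRE shown above, had 1 to 7 counts per library. Its summed counts were 10 with control virus and PBS (exact 95% Poisson interval 4.80 to 18.4), 16 with control virus and VIP (9.15 to 26.0), 5 with ACREB and PBS (1.62 to 11.7) and 11 with ACREB and VIP (5.49 to 19.7). These intervals cover counting error only, and they overlap between all groups. Such overlap is not a test of a difference, and edgeR did not test H2-Aa. H2-Eb1 (ENSMUSG00000060586, chromosome 17, 34305867 to 34316674), the beta chain of I-E, whose alpha chain C57BL/6 mice lack, had 2 to 12 counts per library. Its group sums were 12, 26, 17 and 15 in the order of the groups above, with intervals from 6.20 to 21.0 for the smallest and from 17.0 to 38.1 for the largest.

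Ciita (ENSMUSG00000022504, chromosome 16, 10480059 to 10528418) had 2, 8 and 7 counts in the control PBS libraries and 11, 10 and 1 with control virus and VIP. With ACREB it had 7, 11 and 6 counts after PBS and 5, 4 and 10 after VIP. The group sums of 17, 22, 24 and 19 had overlapping exact 95% Poisson intervals (lowest bound 9.90, highest 35.7). Such overlap is not a test of a difference, and edgeR did not test Ciita. Ciita shares 329 exonic bases with Dexi on the opposite strand, and the strand setting of the counter is not given in the sources used here, so these counts are uncertain.

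Neither peptide-exchange gene passed the test in any comparison, with 254 to 358 counts of H2-DMa and 30 to 89 of H2-DMb1 per library. H2-DMa (ENSMUSG00000037649, chromosome 17, 34119541 to 34139101) was at 13.2, 19.1 and 16.7 CPM with control virus and PBS and at 13.0, 15.2 and 15.4 CPM with control virus and VIP. ACREB libraries had 16.0, 19.3 and 16.5 CPM after PBS and 15.4, 19.4 and 18.5 CPM after VIP. The PBS groups overlapped, and after VIP the lowest ACREB library (15.38 CPM) stood just above the highest control library (15.36 CPM). In that comparison 6.97% of all genes tested were higher without overlap. H2-DMa gave log2 fold changes between the viruses of 0.08 (SE 0.16) after PBS and 0.29 (SE 0.16) after VIP, which did not pass in edgeR (adjusted p = 0.956 and 0.983). H2-DMa shares 360 exonic bases with Brd2 on the opposite strand, which makes its counts uncertain.

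H2-DMb1 (ENSMUSG00000079547, chromosome 17, 34153072 to 34160230), the partner beta chain, had levels of 1.56, 3.79 and 3.72 CPM with control virus and PBS and of 2.00, 3.05 and 4.70 CPM once VIP was given. With ACREB they were 2.24, 3.02 and 2.93 CPM after PBS and 1.74, 2.95 and 4.09 CPM after VIP. The library numbered 1 was the lowest in every group, and the viruses overlapped throughout. Its log2 fold change between the viruses was -0.15 after PBS (SE 0.41) and -0.15 after VIP (SE 0.40), with adjusted p of 0.961 and 1.00 in edgeR. H2-DMb1 shares 22.7% of its 50-base words with its neighbour H2-DMb2, so reads of the 2 genes may be split or lost.

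In the edgeR test without the block, 0 of the 4 tested genes passed in any of the 5 comparisons. At an unadjusted p under 0.05, edgeR gave 1 (Cd74) for ACREB against control virus with PBS, where 5.3% of all genes reached it, and 1 (Cd74) with VIP, where 5.69% did. It gave 0 for VIP with control virus (6.42% of all genes), VIP with ACREB (1.92%) and the interaction (1.2%). With the block, the unadjusted p was under 0.05 for Cd74 with PBS (10.8% of all genes) and for Cd74 and H2-DMa with VIP (11% of all genes). After adjustment, 1 of the 4 (Cd74) passed with the block and with DESeq2 in each comparison of the viruses, and 0 passed in the remaining comparisons. DESeq2 called 0.515% of the genes it gave an adjusted p for ACREB over control with PBS and 0.691% with VIP, and 1.43%, 0.135% and 0% for VIP with control virus, VIP with ACREB and the interaction. The edgeR test called 0.489% of all genes for VIP with control virus, 0.0119% for VIP with ACREB and 0% for the interaction, and with the block 1.63%, 0.0776% and 0%. For VIP over PBS, the log2 fold changes of H2-Ab1, H2-DMa and H2-DMb1 were 0.36, -0.17 and 0.10 with control virus and 0.09, 0.04 and 0.10 with ACREB.

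Levels per length placed Cd74 and H2-DMa at the top of the module. Over the 12 libraries the mean was 6.01 ± 4.17 CPM per kb of exon for Cd74, 4.78 ± 0.649 for H2-DMa, 1.77 ± 0.580 for H2-DMb1, 0.55 ± 0.164 for H2-Ab1, 0.16 ± 0.0849 for H2-Eb1, 0.049 ± 0.0259 for H2-Aa and 0.039 ± 0.0193 for Ciita (SD, n = 12). Per kb of exon, Cd74 and H2-DMa exchanged places with the virus, an order that depends on the exon lengths used (1.679 and 3.448 kb). In CPM, H2-DMa was above Cd74 in every library except ACREB PBS library 2 (19.3 CPM of H2-DMa and 24.3 of Cd74). In control libraries Cd74 reached at most 3.45 CPM per kb and H2-DMa at least 3.77, while in ACREB libraries Cd74 was at least 7.31 and H2-DMa at most 5.63. H2-DMb1 lay between H2-DMa and H2-Ab1 without overlap with either (0.93 to 2.80 CPM per kb), whereas H2-Ab1 and H2-Eb1 met at their edges and H2-Eb1, H2-Aa and Ciita overlapped. Of the genes tested, 56.9% had a lower mean level per kb than Cd74, and 0.107% had a lower one than H2-Aa.

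**Figure D3:**
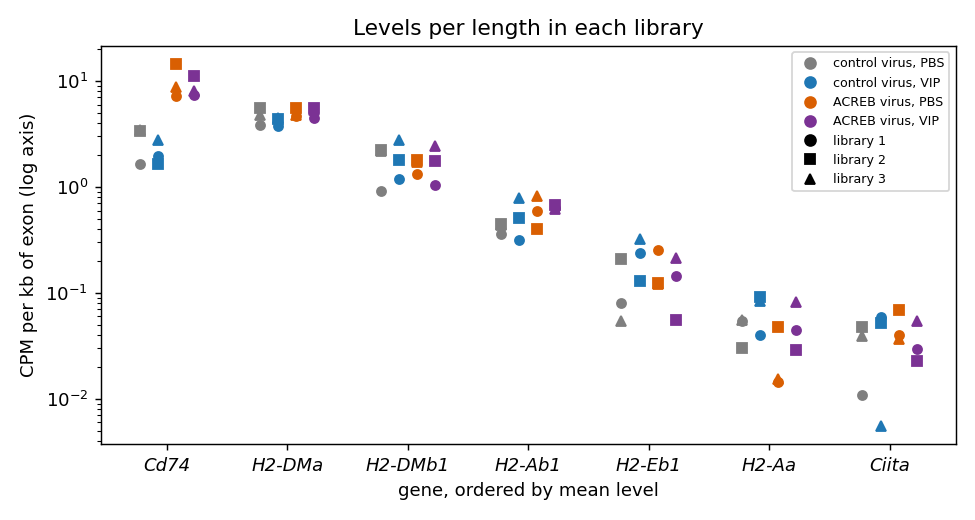
Level of each gene per kb of exon in each library, in CPM per kb on a log axis, with genes ordered by their mean; colours mark virus and treatment and symbols the library number. Cd74 lies below H2-DMa in all 6 control libraries and above it in all 6 ACREB libraries, and the order of the remaining genes runs down to 0.039 CPM per kb for Ciita.

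The invariant chain gene stood in a higher proportion to the chain genes in every ACREB library than in any control library. Cd74 per kb divided by the summed level per kb of H2-Aa, H2-Ab1 and H2-Eb1 was 4.85 ± 1.52 with control virus and PBS and 2.66 ± 0.579 with control virus and VIP (SD, n = 3). It was 14.3 ± 9.53 with ACREB and PBS and 10.8 ± 3.26 with ACREB and VIP. The highest control library had a ratio of 6.33 and the lowest ACREB library one of 8.48. ACREB PBS library 2 alone reached 25.3, with 17 counts of H2-Ab1, 3 of H2-Aa and 4 of H2-Eb1. The other 5 ACREB libraries lay between 8.48 and 14.6. The numerator, Cd74, separated the viruses by itself, and in the denominator H2-Aa and H2-Eb1 did not pass the filter on low counts.

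Microglia markers were higher in mean level with ACREB, and their values stand here beside those of Cd74. The 19 markers summed to 1904 to 3651 CPM with control virus and PBS, 1801 to 3930 with control virus and VIP, 2393 to 4461 with ACREB and PBS and 2268 to 4754 with ACREB and VIP. The ranges overlapped. Of the 18 markers tested, 17 were above 0 for ACREB over control with PBS (median log2 fold change 0.36) and 18 with VIP (0.46), with medians of 0.01 and 0.00 over all genes tested, and 0 passed edgeR's quasi-likelihood test or its fit with the block. Csf1r, a growth factor receptor gene of microglia, had a log2 fold change of 0.39 with PBS. The part of these markers in the Cd74 result was not tested. In bulk RNA, more cells of a type and more RNA per cell cannot be told apart.

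Relative to these markers, Cd74 was also higher in every ACREB library than in any control library. For each 1000 CPM of summed microglia markers there were 1.68 ± 0.300 CPM of Cd74 with control virus and PBS, 1.48 ± 0.334 with control virus and VIP, 5.02 ± 1.69 with ACREB and PBS and 4.66 ± 1.56 with ACREB and VIP (SD, n = 3). The highest control library had 2.02 and the lowest ACREB library 2.86. Within the 6 control libraries, Pearson's r between log2 levels of Cd74 and of the marker sum was 0.84, and within the 6 ACREB libraries it was 0.33. By Spearman's rank correlation the values for Cd74 were 0.66 and 0.43. For H2-DMb1 and the marker sum, Pearson's r was 0.87 and 0.91. These are descriptions over libraries that share numbers.

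**Figure D4:**
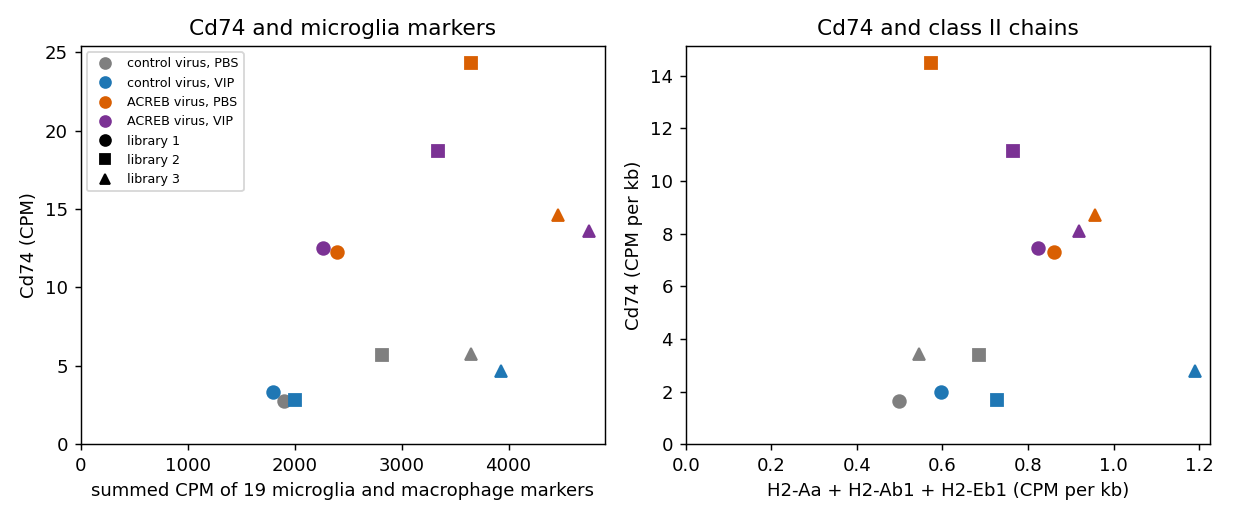
Cd74 against the summed CPM of 19 microglia and macrophage markers on the left, and Cd74 against the summed chain genes, both in CPM per kb, on the right; each symbol is 1 of 12 libraries. On the left the ACREB libraries stand above the control libraries where marker sums overlap, and on the right they stand above them where chain levels overlap.

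The factors that bind class II promoters were measured in all groups. Of 9 such genes, 1 (Crem, a CREB family member) rose with VIP in control virus, from 24.2 ± 6.74 to 56.8 ± 16.2 CPM (log2 1.23, adjusted p = 0.040, edgeR's quasi-likelihood test), and 0 passed for ACREB over control. Creb1, the gene of CREB, measured 48.0 ± 23.9, 54.6 ± 9.10, 87.1 ± 23.9 and 95.6 ± 19.3 CPM in the order of the groups above. Its log2 fold change of ACREB over control did not pass (0.86 with PBS and 0.81 with VIP). Whether reads from the ACREB insert of the virus were counted in Creb1 was not tested. The Creb1 values of the ACREB libraries may therefore not be those of the mouse gene alone. The NF-Y subunit gene Nfyc (-0.08) and the RFX subunit gene Rfxap (-0.14) had small log2 fold changes with PBS, and the list had medians of 0.05 with PBS and -0.07 with VIP.

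No gene of the pathway that induces Ciita passed. Ifng, the gene of interferon-gamma, had 0 counts in all 12 libraries, and 11 of 12 listed genes were tested. Of these 0 rose and 0 fell in any comparison in edgeR's test or with the block. Between the viruses the median log2 fold change was -0.03 with PBS and 0.03 with VIP. The kinase genes Jak1 (0.18) and Jak2 (0.10), the receptor gene Ifngr1 (0.07) and the factor gene Usf1 (-0.03) had log2 fold changes near 0 with PBS.

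All 13 tested genes of a list of interferon response genes had negative log2 fold changes for ACREB over control in both treatments. The list is not particular to interferon-gamma. Medians were -0.32 with PBS and -0.56 with VIP, against 0.01 and 0.00 over all genes. Of the 13 genes, 0 passed edgeR's test with or without the block. Among them were Ifit3 (-0.32 with PBS), an antiviral gene, and the guanylate-binding protein gene Gbp2 (-0.19). Of 9 genes of Nlrc5, the class I relative of Ciita, and class I presentation, 0 were above 0 for ACREB over control with PBS (median log2 fold change -0.34) and 3 with VIP (-0.42), and 0 passed without the block. With the block the heavy chain genes H2-K1 (adjusted p = 0.037) and H2-D1 (0.035) were lower in ACREB with PBS, and H2-D1 (0.0498) with VIP, by edgeR's test. With PBS, mean H2-K1 was 393.6 ± 130.5 CPM with control virus and 196.7 ± 15.2 CPM with ACREB, a log2 fold change of -1.0 that without the block had an adjusted p of 0.341 in edgeR.

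Accessory genes of class II, which include enzymes that cut the invariant chain, ranged from abundant cathepsin genes to genes with few counts. None of those tested passed. Of 13 listed accessory genes 12 were tested, and 0 rose and 0 fell in any of the 5 comparisons in edgeR's test or with the block. Cathepsin S, which cleaves the invariant chain, is encoded by Ctss and measured 402.8 ± 192.5 CPM with control virus and PBS and 530.7 ± 191.1 with ACREB and PBS (log2 0.40, adjusted p = 0.96, edgeR). The cathepsin genes Ctsb (-0.10), Ctsd (0.04) and Ctsl (-0.13) had log2 fold changes near 0 with PBS. For ACREB over control, 8 of the 12 genes were above 0 with PBS (median 0.14) and 12 of 12 with VIP (median 0.25), with medians of 0.01 and 0.00 over all genes tested. Of 6 co-stimulatory or co-inhibitory genes, Cd274 being co-inhibitory, 5 were tested and 0 passed. Icosl (0.25), Cd86 (0.59), Cd274 (0.07) and Cd80 (0.28) were the most abundant of them, with log2 fold changes with PBS in brackets.

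The 10 genes whose log2(CPM + 0.5) was most like that of Cd74 over the 12 libraries were Glyctk, Mmab, Rhbdd1, Fam71e1, Csf2ra, Zc3h18, Tfip11, Cdnf, Wfdc1 and Gzmb, with Pearson's r from 0.96 to 0.91. None is a class II gene. The Cd74 levels form 1 cluster per virus, so r over all 12 libraries includes the difference between the viruses, and 7 of the 10 were higher in every ACREB library than in every control library. Glyctk, a glycerate kinase gene, averaged 4.46 CPM over the control libraries and 12.2 CPM over the ACREB libraries, with r of 0.73 within control and 0.66 within ACREB. Mmab, a cobalamin adenosyltransferase gene, averaged 24.1 and 41.0 CPM, with r of 0.55 and 0.91. Csf2ra, a receptor subunit for the myeloid growth factor GM-CSF, averaged 28.5 and 44.9 CPM, with r of 0.92 and 0.69.

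Gzmb, the gene of the protease granzyme B, had 3 counts over the 6 control libraries and 121 over the 6 ACREB libraries. Its level was at most 0.053 CPM with control virus and between 0.49 and 1.69 CPM with ACREB, and r was -0.17 within control and 0.56 within ACREB. With so few control counts, Gzmb passed the filter on low counts through the ACREB libraries. No test of the viruses is given for these 10 genes, since likeness to Cd74 already selects for that difference. By rank correlation, 5 of the 10 genes were again among the 10 most like Cd74.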

How the data were processed

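Values in the table the authors deposited are raw counts for each gene in each library, whole numbers with no normalization. The submitters' processing notes name HTSeq 0.11.2, STAR 2.7.1a, Trimmomatic 0.39, edgeR and R 3.6.1, and the genome GRCm38 (mm10). The annotation release is not given in the sources used here. Loci are from GENCODE annotation of GRCm38.

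In R 4.3.3, edgeR 4.0.16 (filterByExpr, TMM, quasi-likelihood F test, 1 mean per group over 12 libraries) tested 16761 genes, with Benjamini-Hochberg adjustment over all and a threshold of 0.05. The SE is the log2 fold change divided by the square root of F. CPM uses TMM-adjusted library sizes. DESeq2 1.42.0 and a fit with the replicate number as a block were alternatives. Deviations from the group mean were correlated in each of 18 pairs of same-numbered libraries (0.132 to 0.679), so the numbers were taken to pair the samples, on the data and not on the labels. Further alternatives were no filter, raw library totals, GC and length offsets with the block, 1 library left out, the 6 libraries of a comparison alone and, chosen after seeing the data, both PBS libraries numbered 2 left out. The code was tested on simulated data.

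The genes and lists were chosen with earlier results of these data known. The text names the 7 genes, list members past the threshold, up to 4 abundant members per list, and the 10 genes most correlated with Cd74, leaving out predicted and RIKEN symbols.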

Additional observations from a re-analysis of the deposited data

How the results depend on the processing

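The count of class II genes past the threshold was 0 in every comparison in the edgeR fit described. For ACREB against control virus with PBS it was 1 (Cd74) with DESeq2, with no filter on low counts, with the replicate block, and with GC and length offsets plus the block. With VIP it was 1 in the same 4 settings, with the 6 libraries of the comparison alone, and without both PBS libraries numbered 2, a setting chosen after seeing the data. Leaving out 1 library gave 0 with PBS and 0 to 1 with VIP, where it was 1 without control PBS library 1 or 2 or ACREB PBS library 2. The log2 fold change of Cd74 then ranged from 1.50 to 2.04 with PBS (adjusted p 0.147 to 0.479) and from 1.86 to 2.29 with VIP (0.033 to 0.379). With offsets and the block it was 1.93 and 1.98. The replicate block changed no other call of a class II gene; among the lists it added H2-K1 and H2-D1 for ACREB over control, and 1 astrocyte marker (Fgfr3) and 1 oligodendrocyte marker (Olig2) for VIP with control virus.

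Of 20 log2 fold changes, none of those of ACREB over control for Cd74 or H2-Ab1 changed sign. Without both PBS libraries numbered 2, VIP over PBS with ACREB turned to 0.14 for Cd74 and -0.14 for H2-Ab1. Leaving out 1 library gave ranges that cross 0 for VIP over PBS with ACREB (Cd74 -0.38 to 0.15, H2-Ab1 -0.13 to 0.37, H2-DMa -0.025 to 0.14, H2-DMb1 -0.22 to 0.37), for VIP over PBS with control virus (H2-DMb1 -0.23 to 0.36), for ACREB over control with PBS (H2-DMa -0.054 to 0.21, H2-DMb1 -0.46 to 0.053) and with VIP (H2-DMb1 -0.47 to 0.22), and for the interaction (H2-Ab1 -0.53 to 0.083, H2-DMb1 -0.32 to 0.35). The cause was not tested. CPM on raw library totals moved no group mean by more than its SD. With a pseudocount of 2 CPM, 9 of the 10 genes most like Cd74 were shared. H2-Aa, H2-Eb1 and Ciita had few counts at this depth, and their Poisson intervals leave out variation between libraries.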

Other observations

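The genes of the H2-O heterodimer, which restrains H2-DM, were low but measured. H2-Ob had 1.11 ± 0.274 CPM with control virus and PBS, 1.17 ± 0.559 with control virus and VIP, 2.42 ± 0.521 with ACREB and PBS and 2.12 ± 0.938 with ACREB and VIP (SD, n = 3). H2-Oa had 0.60 ± 0.158, 0.50 ± 0.271, 0.93 ± 0.244 and 1.03 ± 0.354 CPM in the same order. Between the viruses, H2-Ob had log2 fold changes of 1.12 after PBS and 0.86 after VIP, and H2-Oa had 0.63 and 1.04. None passed edgeR's quasi-likelihood test (adjusted p from 0.695 to 0.956). The naming rule does not cover these 2 genes, which were picked with their values in view.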
